A study of Mus musculus with 6 samples.

Results

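Prostaglandin E2 is a lipid mediator that cells make from membrane arachidonate. The genes described here encode the enzymes that make it or its sister prostaglandins, and the receptors that bind it. Probes were chosen by symbol from a list of 9 genes, namely the E receptor genes Ptger1, Ptger2, Ptger3 and Ptger4, the cyclooxygenase genes Ptgs1 and Ptgs2, and the terminal synthase genes Ptges, Ptgis and Ptgds. Of the 9, 8 had a probe with that single symbol, 1 probe each, among 8841 named genes on 10500 probes. Ptgs1 was not analysed here. Expression had been profiled in 2T3 pre-osteoblasts of the mouse by arrays on total RNA, in 3 samples exposed to simulated microgravity on a Random Positioning Machine and in 3 static controls. Both groups grew in OptiCells, thin closed culture cassettes, and the labels name no other agent, genotype or time. The machine turns a culture continuously about changing axes, so gravity keeps its strength but loses its fixed direction, which limits it as a model of weightlessness. The series title asks how this affects differentiation and gene expression.

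In the textbook pathway, phospholipases free arachidonate, a cyclooxygenase turns it into prostaglandin H2, and a terminal synthase fixes the product: prostaglandin E2 through Ptges, prostacyclin through Ptgis and prostaglandin D2 through Ptgds. Prostaglandin E2 then acts on cells through E receptors that differ in signal. The product of Ptger1 raises calcium, those of Ptger2 and Ptger4 raise cAMP through Gs, and that of Ptger3 mainly lowers cAMP through Gi. In bone, osteoblasts both make and sense prostaglandin E2, Ptgs2 is known to be induced there by mechanical load and cytokines, and the mediator can drive bone formation as well as resorption.

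Values are intensities divided by the median of their array, so 1 is the array median. For testing, values below 0.1 of the median were raised to 0.1, a floor that understates changes of dim probes. Fold changes are simulated microgravity over static. A gene is said to have risen or fallen only with an adjusted p under 0.05 over all 10146 probes tested (limma). With 3 arrays in each group, precision is limited by their number, and the median SE of a log2 change was 0.23. All 8 genes passed the filter on dim probes. Of them 1 fell, 0 rose and 7 did not pass, against 0.276% of all probes past the threshold in either direction, 0.187% lower and 0.0887% higher. The median log2 change of the 8 was -0.02, against 0.05 over all 8588 genes tested, and 4 had lower and 4 higher values.

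Ptger1, the E receptor coupled to calcium, was the gene that fell. It had 1.27, 1.01 and 1.00 times the array median in simulated microgravity 1, 2 and 3, against 3.56, 2.98 and 3.14 in static 1, 2 and 3. The groups were far apart, with every exposed sample near the array median and every static sample well above it. The means were 1.09 ± 0.152 in simulated microgravity and 3.23 ± 0.303 in static cells (SD, n = 3 each), which is 2.96-fold lower (log2 change -1.57, SE 0.18, 95% interval -2.0 to -1.13, limma adjusted p = 0.0394). By p it ranked 17 of the 10146 probes, and by size it was the 25th from the lowest. Its direction was the same in all 20 alternative fits, which groups without overlap fix in advance where arrays are only left out. Its call was lost in 9 of the 20. It was lost on leaving out a single array, whether simulated microgravity 1, 2 or 3 or static 1, 2 or 3 (limma adjusted p = 0.122 to 0.201). No probe of any gene passed in those fits, so that loss was not particular to Ptger1. The call was also lost when probes at the floor on all arrays were kept (limma adjusted p = 0.0630). As RNA was taken from whole cultures, fewer cells expressing a gene and less RNA per cell cannot be told apart.

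**Figure D1:**
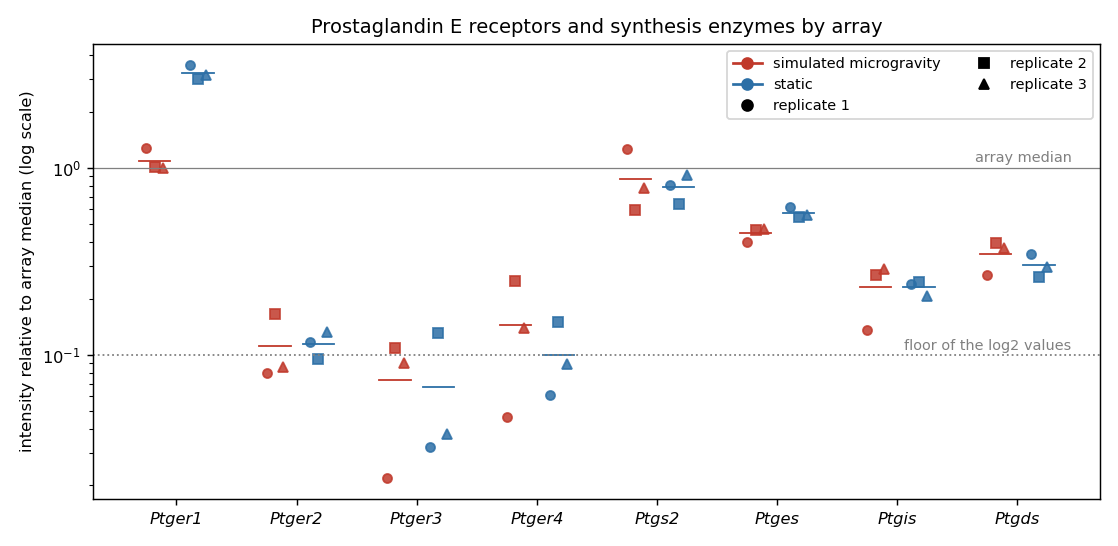
Intensity relative to the array median (log axis) of the 8 genes on each array, with simulated microgravity at the left and static at the right of each gene, a symbol for each replicate number and a line at the group mean. Ptger1 is the gene whose groups stand clearly apart (1.00 to 1.27 against 2.98 to 3.56), while Ptger2, Ptger3 and Ptger4 lie around the floor.

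The other E receptors were dim in both groups. Ptger2, coupled to cAMP, had 0.0801, 0.166 and 0.0862 in simulated microgravity 1, 2 and 3, against 0.117, 0.0955 and 0.132 in static 1, 2 and 3. The groups overlapped, and 3 of the 6 values lay under the floor (log2 change 0.04, 95% interval -0.52 to 0.59, limma adjusted p = 0.988). Its sign depended on the processing and turned, for example, under quantile normalization (-0.20). Ptger4, the other receptor that raises cAMP, had 0.0467, 0.247 and 0.138 in simulated microgravity, against 0.0606, 0.150 and 0.0890 in static cells. The exposed samples enclosed the whole static range, again with 3 of 6 values under the floor (log2 change 0.40, 95% interval -0.43 to 1.22, limma adjusted p = 0.857).

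Ptger3, which signals mainly through Gi, had 0.0219, 0.109 and 0.0900 in simulated microgravity, against 0.0323, 0.131 and 0.0376 in static cells. With 4 of 6 values under the floor, its log2 change of -0.09 (95% interval -0.44 to 0.26, limma adjusted p = 0.919) says little about size. Replicate 2 gave the highest value of its group for Ptger3 and Ptger4 in both groups, and for Ptger2 in simulated microgravity. The replicate 2 arrays also had fewer values at the floor than the others, 6.44% in simulated microgravity and 9.16% in static cells, against 17.1% to 19.8%. The part of this array difference in the receptor values was not tested. Ptger1 was above the floor on all 6 arrays, and its log2 change without both replicate 2 arrays was -1.57 (limma adjusted p = 0.241), an alternative chosen after seeing the data.

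Receptors of the same ligand were also set against each other within arrays. The log2 change of Ptger1 minus that of Ptger2 was -1.60 (SE 0.33), and that of Ptger1 minus Ptger4 was -1.96 (SE 0.54). In both pairs every exposed sample had a smaller within-array difference than every static sample, which gives the smallest p that 3 against 3 arrays allow (2-sided exact permutation p = 0.1, adjusted p = 0.167 over 5 pairs). The design thus cannot reach 0.05 for these pairs. Because Ptger2 and Ptger4 each lay under the floor on 3 of 6 arrays, which limits the change they could show, these differences largely restate the fall of Ptger1.

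The cyclooxygenase Ptgs2 makes the common precursor prostaglandin H2 on demand. It had 1.25, 0.596 and 0.778 times the array median in simulated microgravity, against 0.805, 0.637 and 0.916 in static cells. The exposed samples were the more scattered and enclosed the whole static range. Means were 0.876 ± 0.340 in simulated microgravity and 0.786 ± 0.140 in static cells (SD, n = 3 each), with a log2 change of 0.10 (95% interval -0.67 to 0.88, limma adjusted p = 0.974). The sign turned without simulated microgravity 1 (-0.19) and without static 2 (-0.04).

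Ptges, the inducible microsomal prostaglandin E synthase that works next to Ptgs2, had 0.401, 0.467 and 0.468 in simulated microgravity, against 0.614, 0.546 and 0.557 in static cells. The groups did not overlap, but the gap was small. Means were 0.446 ± 0.0383 in simulated microgravity and 0.572 ± 0.0363 in static cells (SD, n = 3 each), a ratio of 0.778 that did not pass (log2 change -0.36, 95% interval -0.85 to 0.12, limma adjusted p = 0.662). Its value was lower in all 20 alternative fits, which the lack of overlap fixed in advance for those that only left arrays out. Ptger1 and Ptges were the 2 of 8 genes without overlap, both lower, while 15.7% of all probes showed no overlap and 7.57% did so with lower values.

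The promoter windows of Ptgs2 and Ptges are printed because these enzymes are the inducible pair that makes prostaglandin E2. Both come from RefSeq on GRCm38.p6, where 7 of the 9 genes had a window. Ptgis and Ptger1, the gene that fell, had none, so their promoters were not examined. Each shows 250 bases before the annotated start and 30 after it, in the direction of the gene, at chr1:150099781-150100060 on the plus strand for Ptgs2 and at chr2:30903268-30903547 on the minus strand for Ptges. Capitals mark matches to any of 5 motifs, searched on both strands and chosen with the sequences in view: TTGCGCAA (a C/EBP site), TGACG (the core of a cAMP response element), CACGTG (an E-box), GGGCGG (a GC box) and TATAAA (known as the TATA box).
Ptgs2: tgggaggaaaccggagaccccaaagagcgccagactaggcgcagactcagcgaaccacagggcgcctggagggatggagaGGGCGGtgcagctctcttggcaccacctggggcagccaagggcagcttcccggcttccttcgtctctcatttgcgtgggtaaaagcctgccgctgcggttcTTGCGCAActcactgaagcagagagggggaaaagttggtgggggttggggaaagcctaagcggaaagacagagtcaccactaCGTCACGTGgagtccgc
Ptges: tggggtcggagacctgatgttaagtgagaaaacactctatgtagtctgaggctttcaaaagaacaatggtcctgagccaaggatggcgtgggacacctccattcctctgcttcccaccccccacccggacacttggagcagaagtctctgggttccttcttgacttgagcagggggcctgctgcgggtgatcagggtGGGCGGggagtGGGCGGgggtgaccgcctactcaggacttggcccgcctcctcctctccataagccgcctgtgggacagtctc

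The Ptgs2 window held the C/EBP site at position -69, the cAMP core on the other strand at position 14, and 1 GC box. An E-box at position 17 overlaps the cAMP core by its first bases. Positions are counted from 1 at the annotated start, and where transcription starts in these cells was not tested. The Ptges window held 2 GC boxes and none (0) of the other motifs. Over the 32851 windows of the same length in the table, the C/EBP site occurred in 0.180%, the cAMP core in 19.9%, the E-box in 6.79%, the GC box in 34.7% and the TATA box in 13.1%. Such matches describe letters and not binding.

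The branch enzymes for other prostaglandins did not pass either. Ptgis, which makes prostacyclin, had 0.136, 0.268 and 0.287 in simulated microgravity, against 0.240, 0.246 and 0.205 in static cells. Here simulated microgravity 1 lay below all other arrays and the remaining exposed samples above all static ones, so the log2 change was -0.07 (95% interval -0.81 to 0.67, limma adjusted p = 0.980) and turned to 0.27 without simulated microgravity 1. Ptgds, which makes prostaglandin D2, had 0.268, 0.396 and 0.371 in simulated microgravity, against 0.346, 0.260 and 0.296 in static cells. Its groups overlapped (log2 change 0.19, 95% interval -0.39 to 0.76, limma adjusted p = 0.893). The changes of Ptgs2 and Ptgis differed by 0.17 (SE 0.68, 2-sided exact permutation p = 0.9, adjusted p = 0.9).

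**Figure D2:**
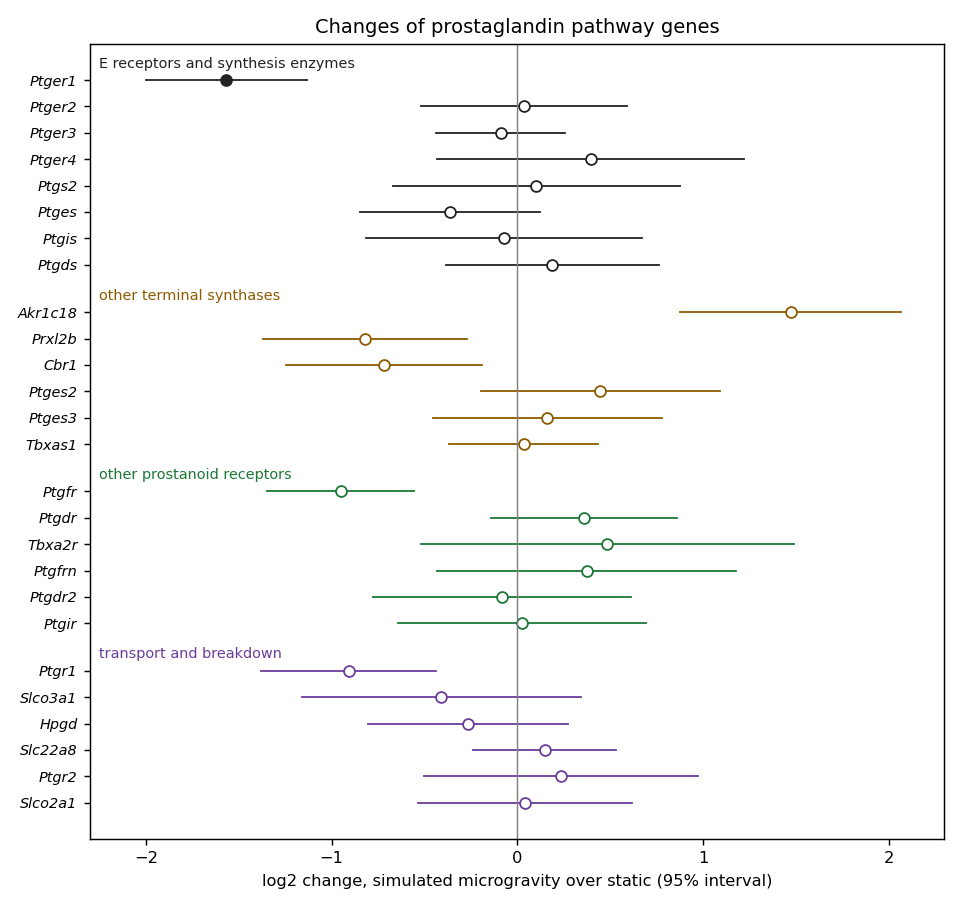
Log2 change, simulated microgravity over static, with 95% intervals from limma, for the 8 genes and for 18 further genes of prostaglandin synthesis, reception, transport and breakdown. Filled points passed an adjusted p of 0.05, which Ptger1 alone did in this plot, and open points did not; Akr1c18 at 1.47, Ptgfr at -0.95 and Ptgr1 at -0.91 lie farthest out among the open ones.

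Around these genes, 11 lists of the wider pathway were examined. Of the 6 other terminal prostanoid synthases tested, 0 fell, 0 rose and 6 did not pass, with a median log2 change of 0.10. Akr1c18, an aldo-keto reductase, had 1.48, 1.50 and 2.21 in simulated microgravity, against 0.737, 0.568 and 0.549 in static cells. All exposed samples were above all static ones, at a ratio of 2.78 (limma adjusted p = 0.0915), and it passed in 4 alternatives, with array weights, with a lower floor (0.05), without a floor and on dropping the dimmest 25% of probes. Cbr1, a carbonyl reductase that can turn prostaglandin E2 into prostaglandin F2alpha, had 0.960, 0.737 and 0.993 in simulated microgravity, against 1.53, 1.66 and 1.23 in static cells. These groups did not overlap, at a ratio of 0.608 (limma adjusted p = 0.292). Prxl2b, which makes prostaglandin F2alpha and prostamides, had a ratio of 0.566 without overlap (limma adjusted p = 0.236). The other prostaglandin E synthases, Ptges2 and the cytosolic Ptges3, had ratios of 1.36 and 1.12 with overlapping groups, and the thromboxane synthase Tbxas1 had a ratio of 1.02 (limma adjusted p = 0.706 to 0.982).

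Receptors for the other prostanoids gave 0 that fell, 0 that rose and 6 that did not pass, with a median log2 change of 0.19. Ptgfr, the receptor for prostaglandin F2alpha, had 0.946, 0.948 and 0.953 in simulated microgravity, against 1.82, 1.92 and 1.76 in static cells. The groups were tight and did not overlap, at a ratio of 0.517 that missed the threshold (log2 change -0.95, SE 0.17, limma adjusted p = 0.0915) and passed with array weights. The receptors for prostaglandin D2 (Ptgdr and Ptgdr2), prostacyclin (Ptgir) and thromboxane (Tbxa2r), and the F-receptor regulator Ptgfrn, had ratios of 0.944 to 1.40 with overlapping groups (limma adjusted p = 0.684 to 0.997).

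Transport and breakdown genes gave 0 calls among 6 tested, with a median of -0.11. Ptgr1, a reductase that inactivates prostaglandin metabolites and leukotriene B4, had 4.0, 4.78 and 5.50 in simulated microgravity, against 11.0, 8.39 and 7.54 in static cells. The groups did not overlap, at a ratio of 0.533 (limma adjusted p = 0.137). Slco3a1, an organic anion carrier that can take up prostaglandins, had a ratio of 0.754 with overlapping groups (limma adjusted p = 0.846). The prostaglandin dehydrogenase Hpgd, the first step of breakdown, lay under the floor on 3 of 3 exposed and 2 of 3 static arrays, so no ratio is given for it. Among 14 genes of arachidonate release, 0 passed, 12 had higher and 2 lower values, and the median was 0.10. Over all 8588 genes tested, 4857 had higher and 3731 lower values. Of the 14, 3 were at the floor on 3 or more arrays. The secreted phospholipase Pla2g12a had 2.90, 3.32 and 2.64 in simulated microgravity, against 1.50, 1.89 and 1.98 in static cells. Its groups did not overlap, at a ratio of 1.66 (limma adjusted p = 0.191). Pla2g4a, the cytosolic phospholipase that feeds cyclooxygenase and that was named after its value was seen, had a ratio of 0.958.

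**Figure D3:**
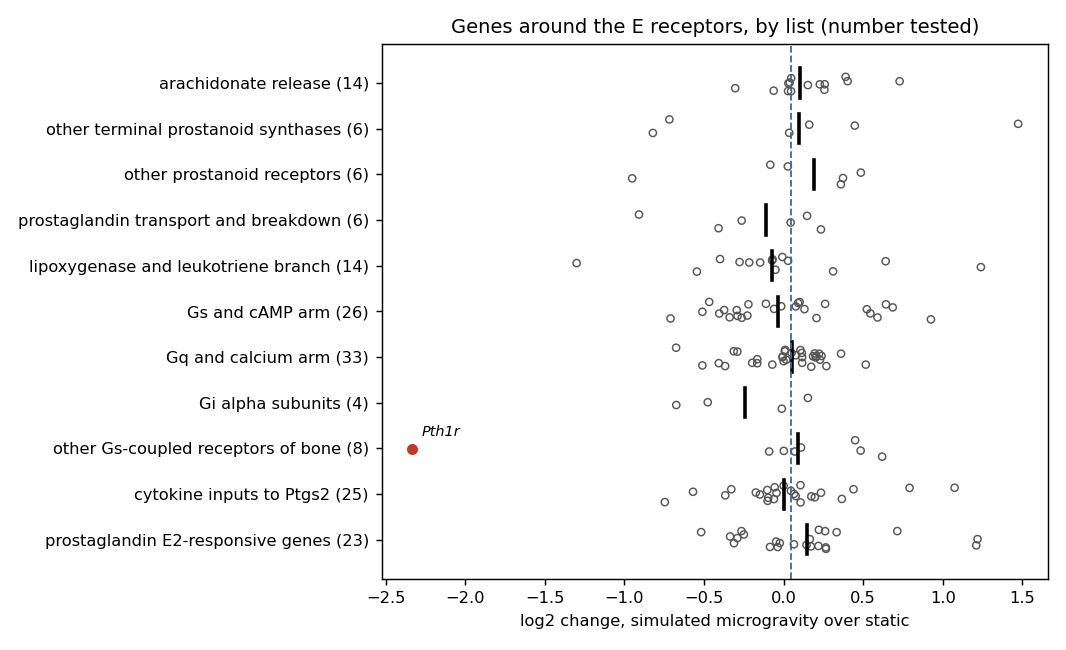
Log2 change, simulated microgravity over static, of each tested gene in the 11 lists, with the list median as a black bar and the median of all genes (0.05) as a dashed line. The filled point, Pth1r, is the list gene that passed the threshold, and the other points did not.

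Downstream of the receptors, 0 of 26 genes of the Gs and cAMP arm passed (median -0.04), and 0 of 33 genes of the Gq and calcium arm (median 0.05). In the cAMP arm 14 had lower and 12 higher values, and in the calcium arm 13 had lower and 20 higher values. Of the 33, 8 were at the floor on 3 or more arrays. The genes named next are those with the smallest p in each arm. The adenylyl cyclase Adcy7 had a ratio of 1.90, the adenylyl cyclase Adcy8 1.56 and the CREB family gene Atf1 1.61, while the kinase anchor Akap12 had 0.702 (limma adjusted p = 0.189 to 0.571). In the calcium arm, the calcineurin-regulated factor Nfatc4 had a ratio of 0.626, protein kinase C theta (Prkcq) 0.754, Camk2a 0.775 and the calmodulin gene Calm3 0.805 (limma adjusted p = 0.260 to 0.708). Of 4 Gi-type alpha subunits, 0 passed (median -0.24), with Gnai2 at a ratio of 0.719, Gnaz at 0.627, Gnao1 at 1.11 and Gnai3 at 0.992.

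Other Gs-coupled receptors of bone held the list gene that passed. Pth1r, the receptor for parathyroid hormone, fell, and 7 of the 8 tested did not pass (median 0.09). It had 0.967, 1.06 and 1.15 in simulated microgravity, against 5.77, 5.27 and 4.96 in static cells, with limma adjusted p = 0.0194. Its call was lost in 8 of the 20 alternative fits, those without 1 array (whether simulated microgravity 1, 2 or 3 or static 1, 2 or 3), without replicate 2 of both groups and with the replicate number as a block. No probe of any gene passed in those fits. Ptger1 changed less than Pth1r by 0.77 on the log2 scale (SE 0.18, 2-sided exact permutation p = 0.1, adjusted p = 0.167). The thyrotropin receptor Tshr had a ratio of 1.54, the calcitonin-receptor-like gene Calcrl 1.40 and the calcitonin receptor Calcr 1.37 (limma adjusted p = 0.358 to 0.841).

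Of 23 genes reported to respond to prostaglandin E2 in bone cells, 0 passed, 13 had higher and 10 lower values, and the median was 0.14. All genes tested divided into 4857 with higher and 3731 with lower values. The EGF family ligand Hbegf had 4.61, 4.56 and 5.04 in simulated microgravity, against 1.78, 1.74 and 2.71 in static cells, and the AP-1 gene Fosl1 had a ratio of 2.31 (limma adjusted p = 0.0669 for Fosl1 and 0.0915 for Hbegf). Neither pair of groups overlapped. Fosl1 passed in 5 alternatives, under cyclic loess, with a lower floor (0.05), without a floor, on dropping the dimmest 25% of probes and with array weights. The angiogenic factor Vegfa had a ratio of 1.64 and the bone morphogen Bmp2 0.806 (limma adjusted p = 0.234 and 0.453). Bmp2 lay under the floor on 2 of 3 exposed and 0 of 3 static arrays, which limits the ratio it could show. Named after their values were seen, the osteoclast regulators Tnfsf11 (RANKL) and Tnfrsf11b (osteoprotegerin) had ratios of 0.841 and 1.13, and Il6 had 0.968. For these last 3 genes the groups overlapped. Many genes of this list also respond to other signals.

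Profiles like that of Ptger1 were sought among 6866 other genes above the floor on all 6 arrays, by the root mean square difference of log2 values centred on each gene's mean. The nearest were the alpha-actinin Actn3 (0.172), the collagen chain Col11a1 (0.181), the proteoglycan Ogn (0.182), the actin-severing Gsn (0.205) and the Wnt modulator Sfrp2 (0.210), where Ptger1 itself varied by 0.795 about its mean. All 5 fell, with log2 changes of -1.76 to -1.29 (limma adjusted p = 0.0295 to 0.0464). They share the 6 arrays with Ptger1, and the measure favours genes with a change of like size. By rank order over the 6 arrays 7 other genes matched Ptger1 fully, and 0 of these were among the 5. For Ptgs2 the nearest were Mtf2 (0.0760), Cdc25a (0.116), Pja1 (0.127), Echdc3 (0.130) and Zfx (0.134), none of which (0) passed (limma adjusted p = 0.897 to 1.00). The nearest to Ptges was Hadh (0.0360), to Ptgds Tmem89 (0.0311) and to Ptgis Speer4f1 (0.121).

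**Figure D4:**
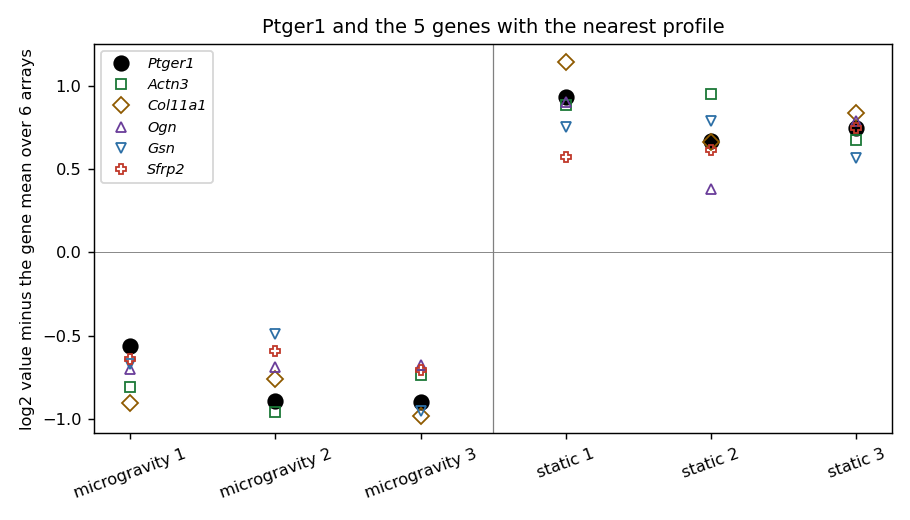
Log2 values minus each gene's mean over the 6 arrays, for Ptger1 (filled) and the 5 genes with the nearest profile, with the simulated microgravity arrays at the left. Ptger1 lies between -0.90 and -0.56 in simulated microgravity and between 0.67 and 0.93 in static cells.

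Cell type markers bear on the mix of cells behind these values. Of 9 osteoblast markers tested, 3 fell (Pth1r, Alpl and Omd), 0 rose and 6 did not pass. Their summed level was 176 to 227 times the array median in simulated microgravity, against 327 to 442 in static cells. Sparc, which did not pass, was its largest part, with means of 137 in simulated microgravity and 201 in static cells (limma adjusted p = 0.457). Of the genes that fell, Omd had means of 14.1 in simulated microgravity and 76.8 in static cells. Pth1r and Alpl were small parts, with static means of 5.33 and 2.85. The sum moved the same way as Ptger1, and its part in that result was not tested. The late markers Dmp1 and Ibsp were dim in both groups, Dmp1 with 5 of 6 values at the floor. Macrophage, osteoclast and blood cell markers (8 tested) summed to 11.2 to 18.3 in simulated microgravity and 14.5 to 18.9 in static cells, mostly through Cd14 and Lyz2, while Ptprc had 4 of 6 values and Itgam 5 of 6 at the floor. Endothelial and epithelial markers (8 tested) summed to 0.811 to 1.30 in simulated microgravity and 0.862 to 1.06 in static cells. Chondrocyte markers (6) summed to 2.75 to 3.13 in simulated microgravity and 2.97 to 3.67 in static cells, and muscle markers (6) to 0.858 to 1.16 in simulated microgravity and 0.964 to 1.10 in static cells. All of these ranges overlapped between groups, and 0 of these markers passed. Adipocyte markers (4) summed to 35.4 to 40.9 in simulated microgravity, against 42.5 to 50.1 in static cells, ranges that did not overlap, and 0 of the 4 passed. Of these, Lpl averaged 9.89 ± 1.56 in simulated microgravity and 16.9 ± 0.804 in static cells (SD, n = 3 each). Pparg was also lower on average, at a ratio of 0.748 with overlapping groups (limma adjusted p = 0.580). Fabp4, the brightest, had a ratio of 1.02 and Adipoq 0.965, both with overlapping groups. Adipoq lay under the floor on 2 of 3 exposed and 1 of 3 static arrays.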

How the data were processed

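Total RNA of 6 samples was measured with 1 array each. The deposited intensity values are linear, and no source used here says how the authors made them from scanner values. Array medians lay between 0.908 and 0.927, so the values were treated as scaled, and each array holds 10337 to 10432 values. Values were divided by the median of their array, raised to 0.1 where lower, and put on the log2 scale. This left out 354 probes, those at the floor on all arrays or lacking 2 values in either group. Groups were compared with limma 3.58.1 (R 4.3.3, lmFit and eBayes with an intensity trend, 2-sided, Benjamini-Hochberg adjustment over 10146 probes), and pairs of genes with an exact permutation test. The fit was tested on simulated data. Symbols came from GEO's platform annotation (8983 probes with 1 symbol, 8975 identifiers found in RefSeq's GRCm38.p6 gene table), and the probe with the highest mean stood for its gene. The members and lists were chosen with earlier results of these data known. Named were all members, all other prostanoid synthases and receptors, called list genes, up to 4 genes with the smallest p per list, and nearest profiles. The labels do not say that samples came from separate cultures, so p-values measure only sample-to-sample spread, possibly technical. The alternatives were other scalings, floors, filters and variance models, array weights, a replicate block and left-out arrays.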

Additional observations from a re-analysis of the deposited data

How the results depend on the processing

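The counts of probes, of the 8 members and of pathway list genes past the threshold were 28, 1 and 1. They became 54, 1 and 2 under quantile scaling, 57, 1 and 3 under cyclic loess, 53, 1 and 3 at a floor of 0.05, 59, 1 and 3 without a floor, 59, 1 and 3 on dropping the dimmest 25% of probes, and 115, 1 and 6 under array weights. List genes were 2 at a floor of 0.2. With probes at the floor on all arrays kept, the counts were 1, 0 and 1. They were 0, 0 and 0 by limma in each fit without 1 array (a range of 0 to 0, with 761 to 968 at an unadjusted p under 0.05) and without replicate 2 of both groups (848 at that level), the last chosen after seeing the data. With the replicate number as a block they were also 0, 0 and 0 (938 probes at an unadjusted p under 0.05), and Ptger1 had a log2 change of -1.57 (limma adjusted p = 0.245). Deviations of same-numbered samples correlated at -0.21, 0.46 and -0.18 for numbers 1, 2 and 3. Among unlike numbers, simulated microgravity 3 with static 1 reached 0.66 and simulated microgravity 1 with static 3 reached 0.38. The other unlike pairs were negative, down to -0.45 for simulated microgravity 2 with static 1. Deviations from a group mean cancel within the group for each probe, so positive correlations force negative ones elsewhere. The numbers thus do not consistently pair the samples, and the source of these shared deviations was not tested. The main fit treated the arrays as independent. The block by replicate number joined samples 1 with 1 and 3 with 3, whose deviations correlated negatively. A block by the positively correlated samples was not fitted, so the effect of that pairing on the calls is not known. Ptger1 missed the threshold at -1.57 with probes at the floor kept and without replicate 2 of both groups, and at -1.68 to -1.49 without 1 array. Signs of uncalled members turned. Ptger2 had -0.20 under quantile scaling, -0.12 at a floor of 0.05 and without a floor, -0.18 under array weights, -0.31 without replicate 2 of both groups and -0.21 to 0.16 without 1 array. Ptger3 had 0.19 at a floor of 0.05, 0.14 without a floor and -0.16 to 0.041 without 1 array. Ptgis had 0.12 at a floor of 0.2 and -0.27 to 0.27 without 1 array, Ptgds -0.021 without replicate 2 of both groups, and Ptgs2 -0.19 to 0.35 without 1 array. The difference of Ptgs2 minus Ptgis turned to -0.013 at a floor of 0.2 and ran from -0.46 to 0.56 without 1 array. By Spearman correlation, 0, 2, 0, 1 and 3 of the 5 nearest genes of Ptger1, Ptgs2, Ptgis, Ptges and Ptgds were among the best. The cause of these changes was not tested. Ptger2 and Ptger3 could not be tested at floors of 0.2 or 0.5 or with the dimmest 25% dropped, nor Ptger4 at 0.5 or with the dimmest dropped, nor Ptgis and Ptgds at 0.5, nor Ptger3 without replicate 2 of both groups.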

Other observations

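The lipoxygenase branch uses the same arachidonate to make leukotrienes. Of its 14 genes tested, 0 fell, 0 rose and 14 did not pass, with a median log2 change of -0.07. Alox5ap, the protein that presents arachidonate to 5-lipoxygenase, had 0.153, 0.194 and 0.152 in simulated microgravity, against 0.441, 0.424 and 0.361 in static cells. The groups did not overlap, at a ratio of 0.406 (limma adjusted p = 0.0753), and it passed under quantile scaling, cyclic loess, a floor of 0.2 and array weights. The leukotriene B4 receptor Ltb4r1 had 14.9, 13.4 and 15.3 in simulated microgravity, against 7.02, 4.16 and 7.95 in static cells. It was higher in each exposed sample, at a ratio of 2.36 (limma adjusted p = 0.116). The cysteinyl leukotriene receptor Cysltr1 had a ratio of 1.56 and the lipoxygenase Alox15 0.686 (limma adjusted p = 0.400 and 0.586).

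Among 25 cytokine inputs to Ptgs2, 0 passed, and the median was 2.61e-05. Il1b, a strong inducer of Ptgs2, had 0.283, 0.284 and 0.216 in simulated microgravity, against 0.104, 0.149 and 0.120 in static cells. It was dim but higher in each exposed sample, at a ratio of 2.11 (limma adjusted p = 0.105), and passed with array weights. Il1a had a ratio of 1.73, and the NF-kappaB inhibitors Nfkbia and Nfkbie had 0.674 and 0.596 (limma adjusted p = 0.377 to 0.607). Il1a lay under the floor on 0 of 3 exposed and 2 of 3 static arrays, which limits the ratio it could show.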
